A study of Drosophila melanogaster with 2 samples.

Results

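The 9 genes of the unfolded protein response and of amino acid stress, Xbp1, Ire1, Atf6, PEK, Herp, Hsc70-3, Calr, AsnS and Gadd45, were examined in chromatin immunoprecipitation sequencing (ChIP-seq) peak lists of the Drosophila C/EBP protein Slbo. The genes were taken by name, as 9 of the 13945 protein-coding genes on the 6 chromosome arms used. A peak was given to a gene when its summit, the position of highest signal within the peak, lay in the gene body or within 2 kb upstream. By that rule 8 of 8714 peaks on the arms in the series-level thresholded list belonged to the 9 genes. They fell to 5 of the 9 genes, Ire1, Xbp1, Herp, Hsc70-3 and AsnS, where 44.0% of all protein-coding genes had a summit. In 4 of these (Xbp1, Ire1, Herp and AsnS) the strongest peak lay among the top 3.75% to 7.31% of all peaks. These 4 peaks recurred in the thresholded lists of both replicates, as did 53.7% of all peaks. That share is over peaks of every strength, whereas the 4 were taken as strong ones, so the 2 are not like for like.

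The samples were whole embryos of the slbo-GFP strain, 8 to 24 h old per the source label, in 2 biological replicates that form a single group. A separate age label gives a number of hours that does not match this range, and the source label was used. All embryos carried a transgene for a Slbo-eGFP fusion. The sample descriptions state that an antibody against GFP was used, whereas the antibody label names slbo. Sonicated chromatin had a stated size range of 200 to 800, with no unit. Embryos without the transgene were not analysed here. No control background therefore stands beside these values, and no comparison between groups exists. A whole embryo mixes many cell types, and peak lists hold no expression values, so the labelled material could not be checked against marker genes. What limits the transgene as a model of native Slbo, such as the regulatory sequence that drives it, is not stated in the labels.

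The unfolded protein response restores folding capacity when misfolded proteins collect in the endoplasmic reticulum. The membrane kinase and endonuclease Ire1 splices the mRNA of Xbp1, a basic leucine zipper (bZIP) factor that drives genes for chaperones and for the degradation of misfolded proteins. Atf6 is a membrane-tethered bZIP factor, and PEK (PERK in mammals) phosphorylates the translation factor eIF2alpha, which favours translation of the bZIP factor ATF4, crc in the fly. In mammals, ATF4 pairs with C/EBP proteins on composite elements of amino acid genes, asparagine synthetase among them.

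The DNA under the summits is shown for the peaks on which the account below turns. Sequences are from the dm6 genome, written 5′ to 3′ along the + strand, in windows of 101 bp centred on the summit. The Herp summit lies in a 5′ UTR, so only 30 bases around each matching element are given. Capitals mark matches to the C/EBP core TTGCNNAA on either strand, and the left Herp element is also a match to the broader C/EBP consensus, a set of 16 8-mers. The windows in lower case throughout held no match to the C/EBP consensus, the C/EBP core, the C/EBP-ATF element TGATGCAA, the unfolded protein response element TGACGTGG, the CRE TGACGTCA, the E-box CACGTG or the DRE core TATCGATA.
Herp, left element, chr2L:7799887-7799916, + strand: taagtcgcaggTTGCACAAacagctgagaa
Herp, right element, chr2L:7799969-7799998, + strand: tattaaagtcgTTGCTCAAacacttggttt
Ire1 promoter, chr3R:19861395-19861495, + strand: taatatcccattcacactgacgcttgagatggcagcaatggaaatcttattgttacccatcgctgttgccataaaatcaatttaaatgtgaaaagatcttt
AsnS, strongest peak, chr3L:21172592-21172692, + strand: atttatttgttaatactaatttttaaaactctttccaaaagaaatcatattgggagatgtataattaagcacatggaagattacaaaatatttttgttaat
AsnS, distal peak, chr3L:21172008-21172108, + strand: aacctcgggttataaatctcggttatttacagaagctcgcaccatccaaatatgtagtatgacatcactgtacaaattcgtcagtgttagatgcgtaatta
Hsc70-3 intron, chrX:11806419-11806519, + strand: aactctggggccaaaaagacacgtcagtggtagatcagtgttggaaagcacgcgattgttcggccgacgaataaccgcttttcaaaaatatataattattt
Calr promoter, chr3R:9630943-9631043, + strand: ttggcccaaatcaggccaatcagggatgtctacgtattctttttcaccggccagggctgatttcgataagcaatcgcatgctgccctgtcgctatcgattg

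A total of 8 deposited peak lists were used. The series-level thresholded list held 8786 peaks and the conservative one 8282. The thresholded lists of replicate 1 and replicate 2 held 7151 and 5445 peaks. Each has a ranked counterpart of 110369 to 129565 peaks without the threshold. The score in these lists runs up to 1000 and was set from the irreproducible discovery rate (IDR). This is the estimated chance that a peak does not recur between the lists compared, and 830 was the lowest score in the thresholded lists. In the ranked counterpart of the conservative list, 81.3% of the first compared peaks had the exact coordinates of replicate 1 ranked peaks. Of the second compared peaks, 82.3% had those of replicate 2. In the other series-level ranked list at most 0.00695% matched either replicate. What was compared there, and in each replicate's own lists, was not established. A score in a replicate's own list is thus no measure of agreement between replicates. Signal is the peak caller's enrichment value. Whether it was scaled for depth is not stated, the lists hold no read counts, and sequencing depth is therefore unknown. Signals were compared within a list only, and ranks (1 is the strongest) were used to set replicates side by side. The series-level signals derive from both replicates and so carry no replicate error of their own.

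In the series-level thresholded list 5 of the 9 genes had a summit, beside 44.0% of all protein-coding genes. Replicate 1 gave the same 5 genes with 7 summits, against 41.1% of all genes, and replicate 2 gave 4 genes with 5 summits, against 33.1%. Hsc70-3 was the gene missing in replicate 2. The conservative list also lacked Hsc70-3 and gave 4 genes with 8 summits, beside 42.2% of all genes. In the ranked list at a score of at least 830, Calr and Gadd45 joined the 5 genes, which made 7 genes with 11 summits beside 44.5%. The second ranked list, the counterpart of the conservative one, gave 6 genes with 11 summits beside 42.7%. With 9 genes a single gene moves the share by a large step, and the counts of genes stayed near the level of all genes in the thresholded lists.

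Promoter summits, those within 500 bp of an annotated start site, were found at 5 of the 9 genes in the series-level list, beside 32.0% of all protein-coding genes. The counts were 5 genes in replicate 1 beside 30.4%, 4 in replicate 2 beside 23.2% and 7 in the ranked list at 830 or more beside 32.6%. Of the 8 member peaks, 87.5% lay within 500 bp of a start site of some gene, against 46.1% of all 8714 peaks. Their median distance to the nearest start was 122 bp, against 649 bp. Both contrasts are partly set by the rule, which took member peaks only from gene bodies and the 2 kb upstream. Of all 8714 peaks, 7680 were given to a protein-coding gene by that rule, and the others stayed in the comparison. AsnS alone held 3 of the 8 member peaks. A preference of these genes for promoter peaks cannot be read from this. The median signal of the 8 peaks was 504, against 121 for all peaks and 150 for the 4018 promoter peaks. The 8 signals fell into 2 runs with nothing between, 5 peaks at 496 to 727 and 3 peaks at 77.2 to 93.5. Peaks overlapped by at least 1 bp in the thresholded lists of both replicates were 5 of 8 at the member genes and 53.7% of all peaks. Those 5 were the stronger run. Of the 3 weaker peaks, those at Ire1 and AsnS were overlapped by ranked peaks of both replicates that lay below the threshold in at least 1 replicate. They scored 1000 and 879 in the ranked counterpart of the conservative list. The weaker peak at Hsc70-3 was overlapped by a ranked peak of replicate 1 only.

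**Figure D1:**
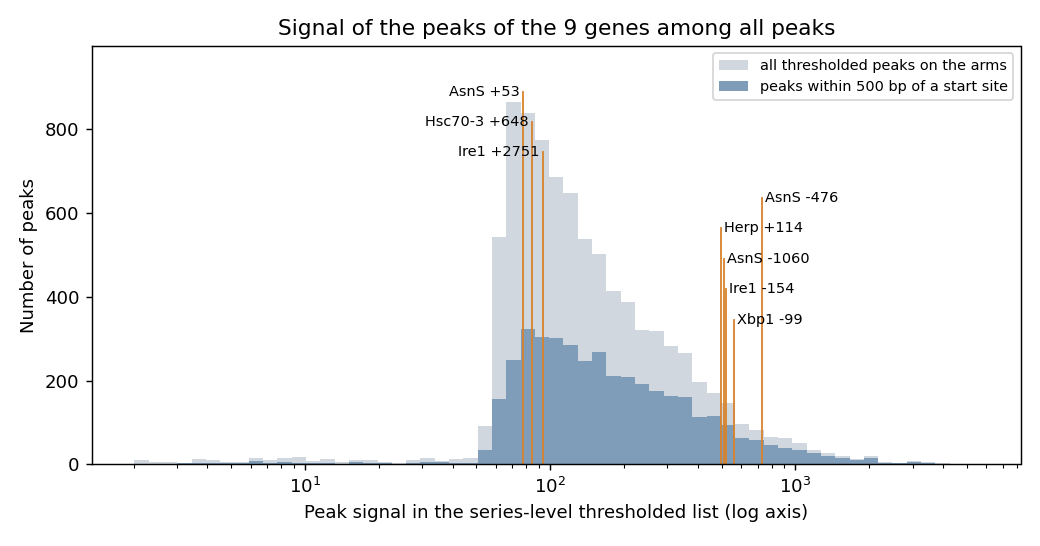
Histogram of peak signal (log axis) in the series-level thresholded list, for all peaks on the arms and for those within 500 bp of a start site, with orange lines at the 8 peaks of the 9 genes and each summit's distance from the gene's 5′ end in bp. Of the lines, 5 stand between 496 and 727, right of the bulk of the peaks, and 3 between 77.2 and 93.5, within it.

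Ire1, the kinase and endonuclease that starts the most conserved branch of the response, is FBgn0261984, on the minus strand of arm 3R from 19853908 to 19861291. Its strongest summit lay 154 bp upstream of the Ire1 start, at 19861445 in the sequence shown above, with a series-level signal of 520 at rank 590 of the thresholded list. In replicate 1 this peak had a signal of 279 at rank 694, and in replicate 2 a signal of 238 at rank 553. The promoter peak was thus among the strongest in both replicates, with summits within 9 bp of each other. It sits between divergent start sites: that of Mrm2, which encodes an RNA methyltransferase of mitochondria, was 165 bp away on the other side. Peaks cannot be assigned to either gene by distance here.

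The other Ire1 summits were weaker and lay in introns. That at +2751 bp from the gene's 5′ end had a series-level signal of 93.5 at rank 5717, and it passed the threshold in replicate 1 (signal 54.8, rank 5902) but not in replicate 2 (signal 43.9, rank 5870, score 421). The ranks were nearly equal, but the score was 1000 in replicate 1, and the reason for the difference in score was not tested. That at +1526 bp had a signal of 71.8 and was present in the conservative list only. Its score was 840 in the second ranked list, against 390 in the first, and it passed the threshold in neither replicate.

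Xbp1, whose spliced product is the main transcription factor of the Ire1 branch, is FBgn0021872, on the plus strand of arm 2R from 21143545 to 21145750. Its only summit lay 99 bp upstream of the start, at 21143446, in a peak from 21143292 to 21143571. The series-level signal was 561 at rank 513. In replicate 1 the peak had a signal of 343 at rank 474 and in replicate 2 a signal of 223 at rank 620, with summits 18 bp apart. Only Xbp1 had a start within 500 bp, so the peak at this promoter, unlike that at Ire1, had no second start beside it. The summit also fell to Magi, however, by the rule of gene body or 2 kb upstream. Of all genes with a summit, 12.3% had a stronger one than Xbp1. For the peak between Ire1 and Mrm2 the share was 14.05%.

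Atf6 and PEK, the sensors of the other branches, had no summit at a score of 830 or more in any list. PEK, the eIF2alpha kinase, is FBgn0037327 on the minus strand of arm 3R, from 5458563 to 5464753. With its 2 kb upstream it held 12 ranked peaks in the series-level list, the strongest with a signal of 42.3 and a score of 299 at rank 24225. The strongest in replicate 1 had a signal of 30.3 with a score of 138, and that in replicate 2 a signal of 19.1 with a score of 86. Over all its ranked peaks the highest score was 304 in the series-level list, 243 in replicate 1 and 86 in replicate 2, each below 830. With the upstream reach widened to 5 kb it took 2 summits, the stronger at -2354 bp with a signal of 98.04.

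Atf6, the membrane-tethered factor, is FBgn0033010, on the plus strand of arm 2R from 5144733 to 5154756. It had no ranked peak at all in the series-level list or in either replicate, where 90.3% of protein-coding genes had at least 1 ranked peak. The nearest ranked summit was 15558 bp away in the series-level list, 14332 bp in replicate 1 and 15546 bp in replicate 2. Among the 1977 protein-coding genes of 10 kb or longer, 94 had no ranked peak. The stretch reaching 50 kb to either side held 4 protein-coding genes with Atf6 counted, and 3 of these, Atf6 among them, had no ranked peak. That stretch held 20 summits of the ranked list and 2 of the thresholded list. Soft-masked bases, which mark repeats, made up 28.7% of Atf6 with its 2 kb upstream, against a median of 11.2% over all protein-coding genes and 15.5% over the 1355 genes with no ranked peak. Whether reads from this stretch were kept was not tested, and the lack of a ranked peak is no measurement of absent binding.

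**Figure D2:**
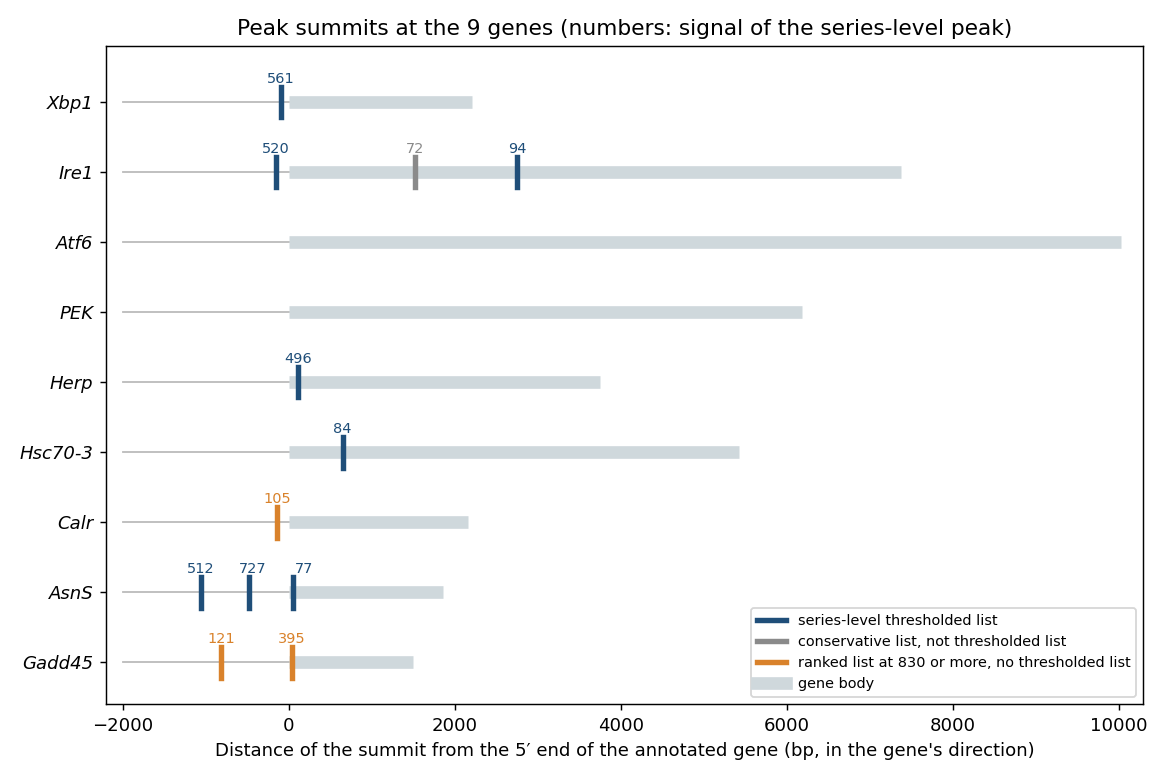
Maps of the 9 genes with 2 kb upstream, drawn in the direction of transcription with distance from the gene's 5′ end in bp, and a tick at each summit under the signal of its peak. Xbp1, Ire1, Herp and AsnS carry summits with signals of 496 to 727 near the gene's 5′ end, Calr and Gadd45 carry summits in the ranked list only, and PEK and Atf6 carry none.

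Herp encodes the fly counterpart of mammalian HERPUD1, a membrane protein of the machinery that removes misfolded proteins from the endoplasmic reticulum. It is FBgn0031950, on the minus strand of arm 2L from 7796314 to 7800058. Its summit, at 7799944, lay 114 bp inside the gene in the 5′ UTR and 97 bp from a second annotated Herp start. The series-level signal was 496 at rank 643. In replicate 1 the signal was 277 at rank 706 and in replicate 2 it was 221 at rank 640, so the replicates placed it alike. The start of r2d2, which encodes a partner of Dicer-2 in RNA interference, was 203 bp away.

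Herp was the only one of the 9 genes with a C/EBP element within 50 bp of a thresholded summit. The consensus match TTGCACAA in the left sequence shown above ran from -46 to -39 bp of the summit, and it also matches the core. A further core match, TTGCTCAA, ran from +36 to +43 bp. That made 1 of 8 member summits with the consensus, beside 5.43% of all summits, and 1 of 8 with the core, beside 8.82%. The consensus match was at the edge of the window: the replicates' own summits were 6 and 22 bp from the series-level summit, and with either of them, or with a window of 25 bp, no member summit held the consensus.

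Other elements were searched in the same windows on both strands, and a match there is a description of letters and not of a binding event. No thresholded member summit held the C/EBP-ATF element, beside 0.264% of all summits, or the unfolded protein response element, beside 0.0803%. None held the full endoplasmic reticulum stress element, beside 0.0230%, or its shorter element CCACG, beside 7.29%. The CRE, the E-box and the DRE core were likewise at none of the 8, beside 0.126%, 0.792% and 2.40% of all summits. Over promoter summits alone the shares were 0.124%, 0.946% and 4.90%. At Hsc70-3 an E-box at 11806412 to 11806417 lay just outside the window, so this zero depends on the width chosen. With only 8 windows and such low rates over all summits, the zeros carry little. The E-box and CCACG were both present at the weaker Gadd45 summit, which passes 830 only in the ranked lists.

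Hsc70-3, the fly BiP, is the main Hsp70 chaperone of the endoplasmic reticulum. It is FBgn0001218, on the minus strand of arm X from 11801696 to 11807117. Its summit, at 11806469, lay in an intron at +648 bp and 116 bp from an internal alternative start. The series-level signal was 84.1 at rank 6379 of 8786, below the median of 121 and above the lower quartile of 81.4 over all peaks. Replicate 1 had the peak with a signal of 58.3 at rank 5569. In replicate 2 no ranked peak overlapped it, and the strongest ranked peak in the gene or 2 kb upstream had a signal of 19.5 with a score of 276. The peak thus rested on replicate 1, and its score of 711 in the second ranked list was below 830.

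Calr encodes calreticulin, a calcium-binding lectin chaperone of the endoplasmic reticulum. It is FBgn0005585, on the minus strand of arm 3R from 9628691 to 9630851. Its summit, at 9630993, lay 142 bp upstream in the sequence shown above. The peak had a series-level signal of 105 and the highest score, 1000, in both ranked lists, yet it was in none of the thresholded lists. In replicate 1 it had a signal of 66.7 and a score of 1000, and in replicate 2 a signal of 36.0 and a score of 50. The peak's score was thus high in the own list of replicate 1 only, with ranks of 4845 in replicate 1 and 8036 in replicate 2. The second ranked list, whose compared peaks mostly carry the coordinates of the replicates' peaks, nevertheless gave it 1000. No other gene's start lay within 500 bp, although the summit also fell to SpdS, which encodes spermidine synthase, by the rule of gene body or 2 kb upstream.

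Gadd45, a small stress-response protein that acts on JNK signalling, is FBgn0033153, on the plus strand of arm 2R from 7249161 to 7250655. It had a strong summit at +35 bp in the 5′ UTR, with a series-level signal of 395, and a weaker one at -819 bp with a signal of 121. Both passed 830 in the ranked lists and neither was in a thresholded list. The stronger peak had a signal of 190 at rank 1360 in replicate 1 and 192 at rank 791 in replicate 2, with a score of 1000 in each. The weaker one had a signal of 52.6 in replicate 1 and 65.2 in replicate 2, also with a score of 1000 in each.

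Calr and Gadd45 belonged to a small set. Over the whole series 280 ranked peaks at 830 or more were missing from the thresholded list, 3.09% of those at 830 or more, and 132 protein-coding genes, 0.947% of all, held such a peak. At Gadd45 they were grouped: 9 missing peaks, the Gadd45 peaks included, had summits within 10 kb of the stronger Gadd45 summit. Their summits spanned 7419 bp, and the nearest thresholded summit was 5271 bp from that Gadd45 summit. At Calr there was 1, the Calr peak itself, with the nearest thresholded summit 3727 bp from its summit. The descriptions deposited with the files name, for every thresholded list, 1 more parent file than for its ranked counterpart, and the part of that file in these absences was not tested. The 2 genes are therefore given by their ranked values and are not counted among the 5.

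**Figure D3:**
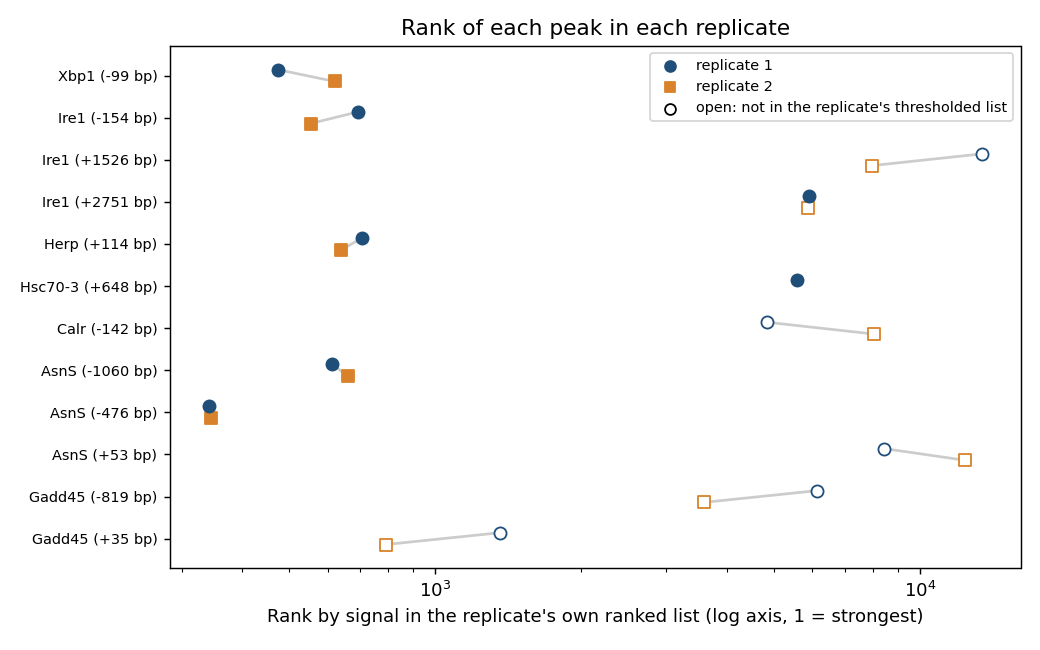
Rank by signal of each member peak in the ranked list of replicate 1 (blue circles) and replicate 2 (orange squares), log axis with 1 as the strongest. Filled symbols are in that replicate's thresholded list and open symbols are not. The promoter peaks of Xbp1, Ire1 and Herp and the upstream peaks of AsnS rank between 341 and 706 in both replicates, while Hsc70-3 has a peak in replicate 1 only.

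AsnS, asparagine synthetase, makes asparagine from aspartate and is a standard target of ATF4 in mammals. It is FBgn0270926, on the plus strand of arm 3L from 21173118 to 21174973, inside an intron of chb, which encodes the microtubule-binding protein CLASP. AsnS held 3 summits, more than any other of the 9 genes in the series-level list, although it is only 1.86 kb long. Of all protein-coding genes 7.36% had 3 or more summits, and of the 1388 genes in its band of length 2.16% did.

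The strongest AsnS summit lay at -476 bp, at 21172642, with a series-level signal of 727 at rank 330. In replicate 1 it had a signal of 411 at rank 341 and in replicate 2 a signal of 315 at rank 344. This was the strongest peak at any of the 9 genes in each replicate, and 8.26% of all genes with a summit had a stronger one. A start of chb was 211 bp away and thus nearer than that of AsnS.

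The second AsnS summit lay at -1060 bp with a signal of 512 at rank 612, and it was called in replicate 1 (signal 299, rank 613) and in replicate 2 (signal 216, rank 661). The nearest start was that of Ac78C, an adenylyl cyclase gene, 128 bp away. The third lay at +53 bp, in the AsnS 5′ UTR, with a signal of 77.2 and a score of 986. It passed the threshold in neither replicate, with a signal of 39.6 (score 411) in replicate 1 and 29.6 (score 274) in replicate 2. The summit closest to the AsnS start was thus the weak one, and both strong summits were closer to the start of a neighbour.

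Neighbouring genes bear on several of the members. Of the 8 member summits, 6 (75%) also fell to another protein-coding gene by the same rule, against 36.8% of all summits that were given to at least 1 such gene. All 3 AsnS summits were among the 6, each shared with Ac78C and chb, so a single locus weighs heavily in this share. The Hsc70-3 summit and the Ire1 summit at +2751 bp fell to no other such gene. At 1 of the 5 genes with a summit, AsnS, the strongest summit was nearer to another gene's start, against 36.9% of all 6129 genes with a summit. Base composition also varied: adenine and thymine made up 52.5% to 79.2% of the windows at the 8 thresholded summits, against a median of 63.4% over all summits. The window at the strongest AsnS peak was the richest and that at the Ire1 summit at +2751 bp the poorest.

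Summits were more common in longer genes, and the members differ in length. In the bands of length that hold Ire1 and Atf6, 64.0% of genes had a summit, and in that of Hsc70-3 and PEK 56.5% did. In the band of Herp 697 of 1394 genes had a summit, and in that of Xbp1 42.9% did. AsnS and Calr fell in a band with 38.7%, and Gadd45 in one with 35.9%. The 2 genes with no ranked peak at 830 or more, Atf6 and PEK, thus came from the bands in which summits were most common among the 9, and AsnS from one of the lowest.

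**Figure D4:**
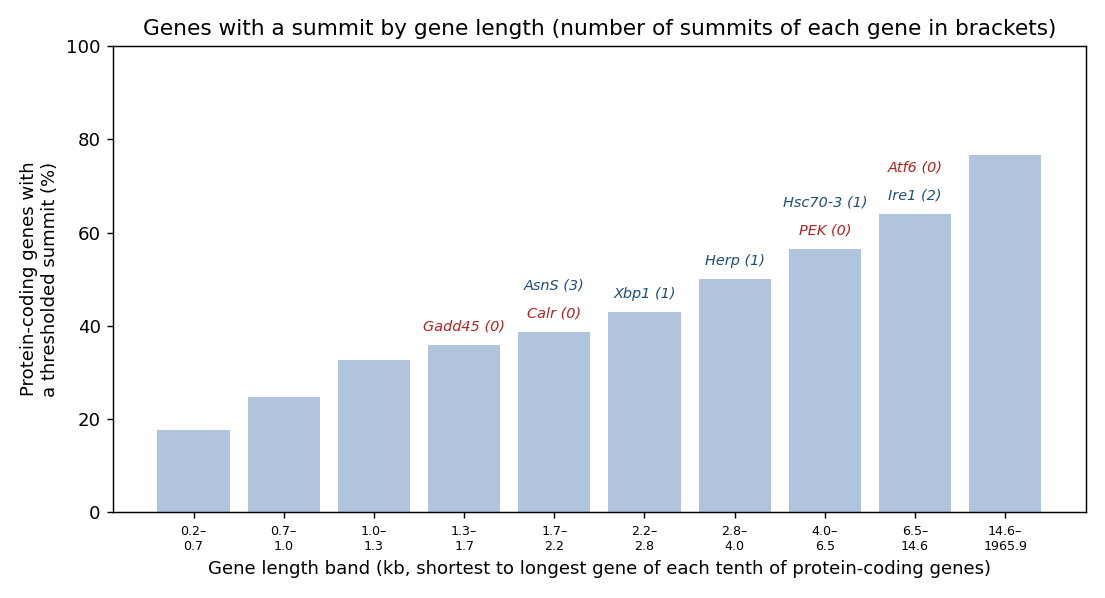
Percent of protein-coding genes with a thresholded summit in 10 bands of gene length, with the 9 genes written at their bands. The share among all genes climbs with length, and Atf6 and PEK lack a summit in bands where 64.0% and 56.5% of genes have one.

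The median of the strongest signal per gene was 520 over the 5 members with a summit, against 192 over all 6129 genes with a summit. It was 318 over the 35 genes with a summit in a wider list of stress genes, described next, without the members. A high median was thus not particular to the 9 genes. Among genes with a summit, 15.1% had a stronger one than Herp and 86.9% a stronger one than Hsc70-3. This describes 5 genes chosen with earlier results known, and no test was made on it.

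The wider list of 71 genes in 6 roles placed the members in their pathways, and 69 were matched to the annotation. Of these, 40 (58%) had a thresholded summit, beside 44.0% of all protein-coding genes. Without the 9 members it was 35 of 60 (58.3%), so the members did not set the figure. The listed genes were longer, with a median of 3.39 kb against 2.17 kb for all protein-coding genes, and in the band of length that holds this median 697 of 1394 genes had a summit. Replicate 1 gave 41 of 69, beside 41.1% of all genes, and replicate 2 gave 34 of 69, beside 33.1%. In 11 of the 40 genes (27.5%) the strongest summit was nearer to another gene's start, against 36.9% of all genes with a summit.

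Among 13 sensors and factors 8 had a summit, with 8 in replicate 1 and 7 in replicate 2. Beside Xbp1 and Ire1 these included Atf3, a bZIP stress factor, with a strongest signal of 1752 and 6 summits. Irbp18, a bZIP protein of the C/EBP family, had 377 and crc, the fly ATF4, had 134. Xrp1, a bZIP factor that pairs with Irbp18, had 126 and 5 summits. Archease, with 126, and RtcB, with 95.1, complete the 8. RtcB is the RNA ligase that joins spliced Xbp1 mRNA in mammals, and Archease is its cofactor. The summits at Irbp18 and crc were nearer to the starts of APP-BP1 (62 bp) and Mondo (92 bp). PEK, Atf6, the eIF2alpha kinase Gcn2 and the proteases S1P and S2P that release Atf6 had none.

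Translation control had 5 of 8 genes with a summit, in each replicate as well. PPP1R15, which directs eIF2alpha dephosphorylation, had the highest signal in the list, 2029, but that summit was 244 bp from a start of Sox14. The stress-induced Sesn had 1045, the pseudokinase trbl 545 and the translation repressor Thor, a 4E-BP, 206. BI-1, an inhibitor of cell death in the endoplasmic reticulum membrane, had 131. The 5 signals thus ran from below to far above the median of 192 over all genes with a summit.

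Chaperones and folding enzymes had 8 of 14 genes with a summit, 9 in replicate 1 and 6 in replicate 2. The strongest were at Cnx99A, a calnexin, with 679, at ERp60 with 453, at P58IPK, a co-chaperone of BiP, with 439, and at Gp93, the Hsp90 of the endoplasmic reticulum, with 336. The ERp60 summit was 71 bp from a start of eEF1alpha1. Hsc70-3, the central chaperone of this group, had the weakest of the 8 strongest signals.

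Degradation of misfolded proteins had 7 of 12 genes with a summit, 8 in replicate 1 and 6 in replicate 2. Hrd3, a partner of the Hrd1 ubiquitin ligase, had 927, with the start of PTPMT1 at 101 bp, and Herp followed with 496. Edem2, which acts on misfolded glycoproteins, had 396 and Ufd1, a cofactor of the extraction ATPase TER94, had 234. Herp was thus the strongest of this role whose summit was nearest to its own start.

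Translocation into the endoplasmic reticulum had the highest share, 8 of 10 genes, with 8 in replicate 1 and 7 in replicate 2. TRAM had a signal of 1753 and Trp1 one of 1479, and the channel subunits Sec61alpha and Sec61beta had 515 and 395. Amino acid genes had the lowest share, 4 of 12, with 3 in each replicate. These were aay, a phosphoserine phosphatase, with 1158, AsnS with 727, Cbs, a cystathionine beta-synthase, with 341, and Gs1, a glutamine synthetase, with 61.3. Summits were thus less common at amino acid genes in this list than at translocation genes, with few genes in either role and no test of the difference. In the ranked list at 830 or more the counts were 5 of 12 and 8 of 10, beside 44.5% of all genes. Nmdmc, the amino acid gene added there, held 3 summits in that list and none in the thresholded one. Phgdh and Psat, which were not matched to the annotation, were also listed as amino acid genes.

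**Figure D5:**
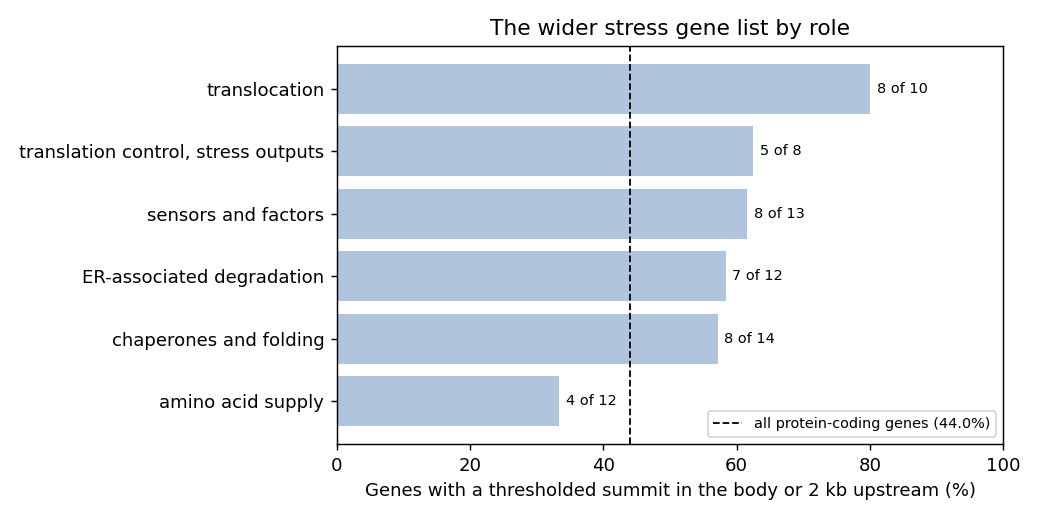
Percent of genes with a thresholded summit in each of 6 roles of the wider list (bars, series-level list), with a dashed line at the 44.0% of all protein-coding genes. Translocation stands highest with 8 of 10 genes and amino acid genes lowest with 4 of 12.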

How the data were processed

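Peaks of 2 biological replicates in 1 group were analysed from 8 deposited lists on dm6. Neither the aligner nor the peak caller is given in the sources used here. In the deposited lists, the signal column is the peak caller's signal value, the score runs up to 1000 and was set by the authors from the IDR, the ranked lists give the −log10 of the IDR, and a further column gives the summit's distance from the peak start. No read counts are held, so depth is unknown, and shares over all genes or peaks are full counts without an interval. The deposited descriptions name 1 more parent file for every thresholded list than for its ranked counterpart.

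Summits were placed in genes of Ensembl release 115 (RefSeq models as an alternative) on 6 arms, in the body or 2 kb upstream. Replicate values came from each replicate's own ranked list, by an overlap of at least 1 bp. Counts of peaks shared by both replicates used the replicates' thresholded lists. Sequence and soft-masking are from the RefSeq copy of the genome. Python 3.11.15, numpy 2.4.6, pandas 2.3.3 and matplotlib 3.10.9 were used, and the assignment and motif search were tested on simulated peaks.

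The text names the 9 genes with every summit, genes with starts within 500 bp of those, the 4 strongest genes per role of the wider list and its sensors and factors. Genes of strongest summits' nearest starts, the soft-masked share and single further genes were added after values had been seen. The members and lists were chosen with earlier results of these data known. With 1 group and no control no test was made and no p-value is given. Only peaks on the arms were used. Alternatives covered the peak list, score, replicate, gene models, upstream reach, promoter width, motif window and overlap.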

Additional observations from a re-analysis of the deposited data

How the results depend on the processing

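Of 81 alternative values, 66 stayed close to the value reported and 15 did not. Close meant within 1.5 times for counts, within 1 SD of the replicates for shares and equal for signals. The 66 include the strongest signal of single genes, 3 values each for Xbp1, Ire1, Herp and AsnS and 1 for Hsc70-3. The series-level lists carry the same signal for the same peak, so these values could hardly move and say nothing about robustness. Without upstream bases the members had 4 summits, the wider list 23 genes with a summit and all protein-coding genes 19.2%, and Xbp1 lost its only summit. With 5 kb upstream 54.1% of protein-coding genes had a summit. With a motif window of 25 bp, 0 member summits and 2.41% of all summits held the C/EBP consensus, and with 100 bp 10.6% of all did. The median strongest signal per member with a summit was 541 in the conservative list, 496 in the ranked list and 508 in the second ranked list, where the genes entering it differ. Using a single replicate's own list, member summits numbered 5 to 7, protein-coding genes with a summit 33.1% to 41.1%, member summits with the consensus 0 to 0 and all summits with it 5.63% to 6.21%. RefSeq models, with 13921 protein-coding genes, gave the same counts of members and summits. The lists hold no read counts, so a missing peak is no measurement of absent binding. No paired analysis was possible because there is a single group with no comparison between groups.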
